A study of Mus musculus with 6 samples.

Results

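The genes of glycolysis and glycogen metabolism were followed in mouse C2C12 myoblasts with a short or a long CTG repeat, at differentiation day 4. The members are a list of names with no threshold on measured values: 39 symbols for glucose entry, glycolysis, glycogen turnover, and the hexosamine branch, which match 40 of the 55421 genes in the deposited tables. *Aldoa* stands in 2 rows, and its row with the most counts is used below, so that 38 symbols were tested and *Ppp1r3d*, a glycogen-targeting subunit of protein phosphatase 1, had 0 counts in all 6 libraries. By role, 22 members belong to glycolysis with glucose entry, 15 to glycogen, and 2 to the hexosamine branch. By name, 13 of the 39 were labelled muscle members, as genes known from skeletal muscle. The label does not mean that these are used only in muscle or that muscle lacks the others. Counts per gene do not tell splice forms apart, such as those of *Pkm*.

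C2C12 is a mouse myoblast line that stops dividing and fuses into myotubes in low serum. Both groups carried a pcDNA-based *GFP* plasmid and were kept as G418-selected stable transfectants, with 5 CTG repeats behind *GFP* in the normal group (CUG5) and 200 CTG repeats in the DM1 group (CUG200), a cell model of myotonic dystrophy type 1. Total RNA of 3 libraries per group was sequenced at day 4 in a differentiation medium with horse serum and insulin, and insulin, which moves the glucose transporter of muscle to the surface and activates glycogen synthase, was thus present in both groups. The study calls the 3 libraries of a group biological replicates, and the sources used here do not say whether they came from separate transfections or from separate cultures of 1 stable line, so the p-values measure the spread between these libraries. The repeat transcript itself was not measured here.

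Glycolysis turns glucose into pyruvate in a chain of cytosolic enzymes, and lactate dehydrogenase then turns pyruvate into lactate. Muscle stores glucose as glycogen, which glycogen synthase and the branching enzyme build and glycogen phosphorylase takes apart when phosphorylase kinase switches it on, while glycogen-bound subunits bring protein phosphatase 1 to the particle. Several steps are made by paralogous isozymes, and differentiating muscle replaces the ubiquitous isozyme by the muscle one at some of them, such as phosphoglycerate mutase and enolase. In people, loss of muscle phosphorylase, muscle phosphofructokinase, or muscle phosphoglycerate mutase causes exercise intolerance.

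The library totals lay between 61707889 and 80957325 counts, where a count in this table is 75 aligned bases. A fragment was taken to be about 4 counts, which was not measured here. Mitochondrial genes took 8.90% to 13.5% of the counts, least in normal library 1 and DM1 library 3. The members' own rows together took 1.01% to 1.20% of the counts of a library. Rows of other genes nearly identical in sequence to a member are left out of this share. For *Gapdh* such rows summed to 3113540 counts over the 6 libraries, beside 107044 in its own row. Of 25 myotube markers, 18 were lower in the DM1 group at an adjusted p-value under 0.05 and none was higher, beside 8.73% and 7.13% of all tested genes. Their summed level was 13829.9 to 15155 CPM (counts scaled to a common library size) in the normal group against 9133 to 9799 CPM in the DM1 group. Among them, *Myog*, a transcription factor of differentiation, fell by 0.65 on the log2 scale (SE 0.077, adjusted p = 0.00227), the muscle creatine kinase *Ckm* by 0.84 (SE 0.085, adjusted p = 0.00159), the skeletal actin *Acta1* by 0.91 (SE 0.13, adjusted p = 0.00359), and the embryonic myosin *Myh3* by 1.32 (SE 0.16, adjusted p = 0.0027). In bulk RNA, fewer myotubes and less muscle RNA per cell cannot be told apart. Markers of adipocytes summed to at most 0.0572 CPM, with 5 of 6 at 0 in every library, and those of endothelial cells to at most 0.429 CPM. Macrophage markers summed to 3.19 to 4.55 CPM, mostly *Cd68*, with *Ptprc* and *Adgre1* at 0 in every library. Of 13 genes of undifferentiated or cycling myoblasts, 2 were higher and none lower at an adjusted p under 0.05, beside 7.13% and 8.73% of all tested genes. In this list 8 of the 13 had a log2 fold change below 0 and the median was -0.13. Their summed level was 1071 to 1090.5 CPM against 1102 to 1291 CPM.

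Of the 38 members tested, 9 differed between the groups at an adjusted p-value under 0.05 in the edgeR fit over 19005 genes. *Pgk1*, *Aldoc*, and *Gfpt2* were higher in the DM1 group, beside 7.13% of all tested genes in that direction, and *Pgam2*, *Pygm*, *Ppp1r3a*, *Pfkm*, *Hk1*, and *Gfpt1* were lower, beside 8.73% of all tested genes. With an absolute log2 fold change over 1 in addition, 1 member was higher (*Gfpt2*), beside 1.36% of all tested genes, and 3 were lower (*Pgam2*, *Pygm*, and *Ppp1r3a*), beside 0.816%. The 9 are 23.7% of the tested members, where 15.9% of all tested genes passed in either direction. The other 29 did not pass, and for 19 of the 38 the whole 95% interval of the fold change lay within 0.5 of 0 on the log2 scale. The normalised counts of the groups did not overlap for 14 of the 38 members, 6 higher and 8 lower, which is close to the 37.2% of all tested genes. The median log2 fold change was 0.0063 over the members and 0.015 over all tested genes.

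**Figure D1:**
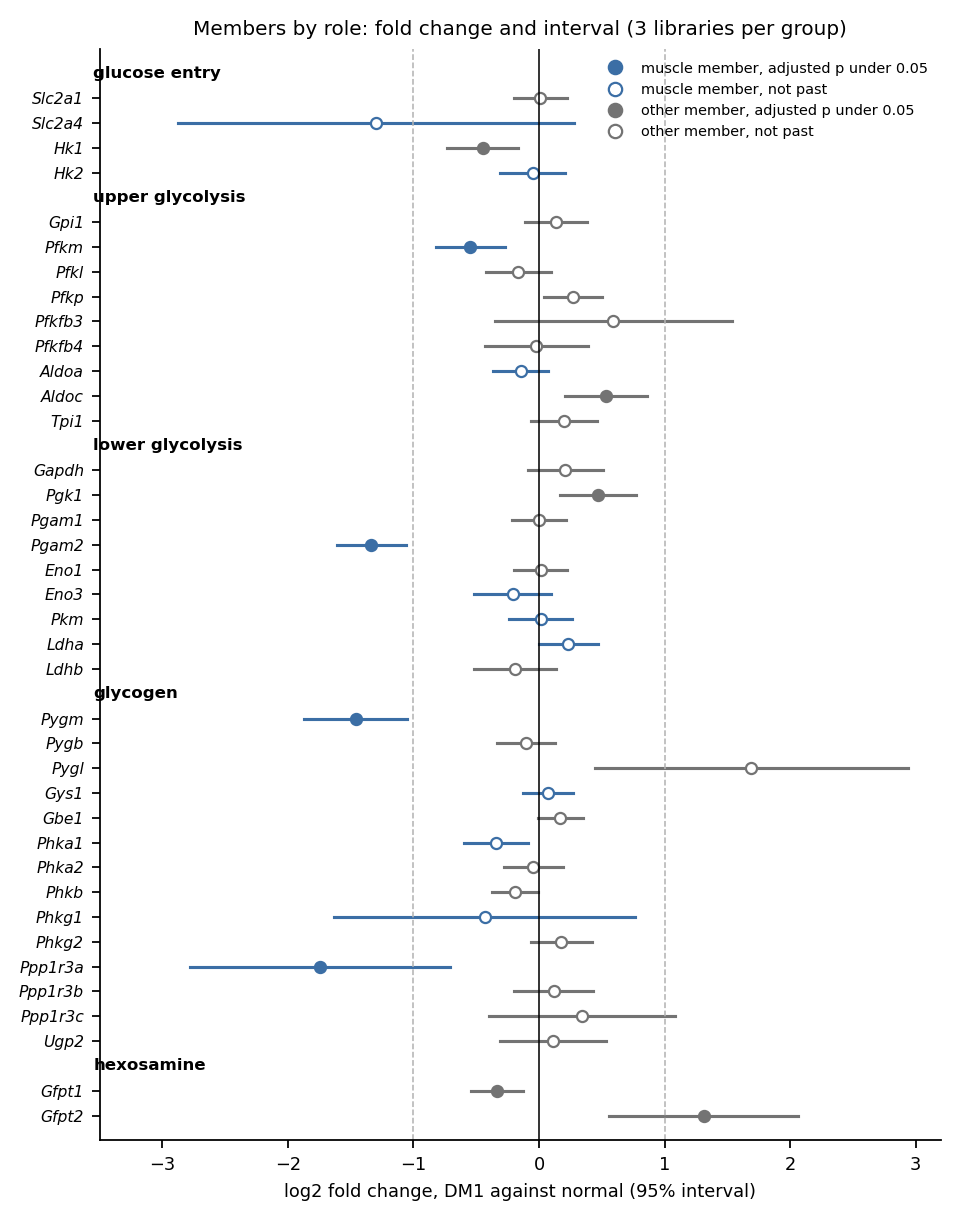
Log2 fold change of each tested member in the DM1 group against the normal group (x axis) with its 95% interval, ordered by role from glucose entry to the hexosamine branch. Filled points have an adjusted p under 0.05, blue marks the muscle members, and the dashed lines are at -1 and 1. *Pgam2*, *Pygm*, and *Ppp1r3a* lie left of -1 and *Gfpt2* right of 1, while most members lie near 0. *Slc2a4* (-1.30) and *Pygl* (1.69) also lie beyond the lines but did not pass.

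The bases before the start of *Pgam2*, *Pygm*, and *Ppp1r3a*, the members that fell past both cutoffs, are shown with those of *Pgk1*, the most abundant member that rose. Each sequence is the 250 bases before the RefSeq start in GRCm38.p6, read 5′ to 3′ on the gene's strand. Capitals mark matches to the E-box CANNTG, of which CAGCTG is the type that MyoD and myogenin are known to bind, to the hypoxia response core ACGTG on either strand, and to the MEF2 consensus. A match is a description of the letters and not a shown binding site.
*Pgam2* (chr11:5803797-5804046, minus strand): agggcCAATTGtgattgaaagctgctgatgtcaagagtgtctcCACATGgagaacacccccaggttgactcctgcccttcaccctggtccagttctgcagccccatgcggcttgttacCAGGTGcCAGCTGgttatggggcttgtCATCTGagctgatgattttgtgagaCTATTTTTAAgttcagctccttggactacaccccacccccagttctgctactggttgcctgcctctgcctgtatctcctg
*Pygm* (chr19:6384158-6384407, plus strand): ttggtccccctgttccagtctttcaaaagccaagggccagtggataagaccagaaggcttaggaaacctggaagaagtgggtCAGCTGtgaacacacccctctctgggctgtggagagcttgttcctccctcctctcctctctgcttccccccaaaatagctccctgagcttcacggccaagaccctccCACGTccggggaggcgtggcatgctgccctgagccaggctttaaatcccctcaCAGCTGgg
*Ppp1r3a* (chr6:14755275-14755524, minus strand): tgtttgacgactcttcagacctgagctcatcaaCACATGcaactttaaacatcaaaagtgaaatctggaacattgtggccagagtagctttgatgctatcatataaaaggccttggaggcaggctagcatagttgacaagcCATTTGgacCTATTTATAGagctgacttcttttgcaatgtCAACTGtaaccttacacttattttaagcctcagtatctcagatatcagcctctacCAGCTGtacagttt
*Pgk1* (chrX:106186850-106187099, plus strand): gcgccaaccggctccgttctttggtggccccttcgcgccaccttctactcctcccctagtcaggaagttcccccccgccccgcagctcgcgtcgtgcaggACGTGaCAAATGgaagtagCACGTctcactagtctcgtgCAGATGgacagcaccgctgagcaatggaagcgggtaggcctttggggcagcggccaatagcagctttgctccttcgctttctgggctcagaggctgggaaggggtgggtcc
*Pgam2* and *Ppp1r3a* each hold CAGCTG and a MEF2 match, *Pygm* holds CAGCTG at 2 places and 1 ACGTG, and *Pgk1* holds ACGTG at 2 places and no CAGCTG.

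A RefSeq promoter was found for 37 of the 39 members, the start nearest the gene's first base being used where there were several, and for *Slc2a4* and *Ppp1r3b* none was at hand. CAGCTG was present in 6 of 12 muscle members and 2 of 25 other members, beside 13.0% of the 32851 promoters in the table. Of the members that passed the test, 3 of 6 lower and 0 of 3 higher ones held it. It was also present in *Gpi1*, *Pkm*, *Gys1*, *Phka1*, and *Ppp1r3c*, which did not pass. Any E-box was present in 11 of 12 muscle members and 12 of 25 other members, beside 66.2%. ACGTG was present in 4 of 12 muscle members and 11 of 25 other members, beside 16.6%, and a MEF2 match in 2 of 12 and 0 of 25, beside 2.92%. CACGTG counts both as an E-box and as ACGTG. The start used lay 19461 bases from the gene's first base for *Phkg1*, 4329 for *Ldha*, and 3805 for *Pygl*, and at most 694 bases from it for the other members. Which start is in use in these cells was not measured.

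At glucose entry, the ubiquitous transporter *Slc2a1* was the better expressed one at 87.1 ± 11.2 TPM (the authors' value scaled for transcript length and library size, mean ± SD, n = 3) in the normal group and 83.7 ± 8.92 TPM in the DM1 group. It was at 182, 158, and 156 CPM in the normal libraries and 172, 157, and 170.0 CPM in the DM1 libraries, so that the groups overlapped. It had a log2 fold change of 0.011 (SE 0.092, 95% interval -0.20 to 0.22, adjusted p = 0.956). The insulin-regulated transporter *Slc2a4* was near the limit of detection, with 71, 37, and 111 counts (normal) against 46, 5, and 36 counts (DM1). The groups overlapped, DM1 library 2 with 5 counts lay far below the others, and the log2 fold change of -1.30 did not pass (SE 0.69, 95% interval -2.88 to 0.28, adjusted p = 0.247).

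Hexokinase traps glucose in the cell by phosphorylation. *Hk1*, the widely expressed hexokinase (ENSMUSG00000037012, chr10:62268855-62379908, minus strand in GRCm38), was at 166, 146, and 168 CPM in the normal libraries and 104, 139.7, and 109 CPM in the DM1 libraries. Every DM1 library lay below every normal library, though DM1 library 2 came close to normal library 2. *Hk1* fell by 0.45 on the log2 scale (SE 0.12, 95% interval -0.73 to -0.16, adjusted p = 0.0425). With any library but DM1 library 2 left out, the adjusted p rose above 0.05 (range 0.027 to 0.159). The call was also lost with the replicate block (adjusted p = 0.0759), with mitochondrial genes left out (0.0547), in limma on log2(TPM + 0.1) and log2(TPM + 1) (0.0608 and 0.0613), and without the 2 libraries of lowest mitochondrial share (0.202). *Hk2*, the insulin-responsive hexokinase of muscle, was at 68.4, 53.9, and 57.2 CPM in the normal libraries and 53.5, 55.2, and 64.6 CPM in the DM1 libraries and did not pass, with a log2 fold change of -0.051 (SE 0.11, 95% interval -0.31 to 0.21, adjusted p = 0.818).

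In upper glycolysis, phosphofructokinase makes the committed step, and of its 3 subunit genes the muscle one fell while the others did not pass. *Pfkm*, the muscle subunit (ENSMUSG00000033065, chr15:98092589-98132451, plus strand), was at 99.9, 85.3, and 100.4 CPM in the normal libraries and 60.1, 58.8, and 76.4 CPM in the DM1 libraries. All 3 DM1 libraries were below the lowest normal library, and *Pfkm* fell by 0.55 on the log2 scale (SE 0.12, 95% interval -0.82 to -0.27, adjusted p = 0.0185), with an adjusted p of 0.00361 to 0.087 when libraries were left out in turn, above 0.05 without normal library 1, normal library 3, or DM1 library 2. *Pfkp*, the platelet-type subunit, was at 157, 124, and 134 CPM in the normal libraries and 159.7, 171, and 169 CPM in the DM1 libraries. Its DM1 libraries were all above its normal ones, by a narrow margin, and its log2 fold change of 0.27 did not pass (SE 0.10, 95% interval 0.037 to 0.50, adjusted p = 0.112). The liver-type subunit *Pfkl* was at 144, 111, and 123 CPM in the normal libraries and 119, 101, and 117 CPM in the DM1 libraries, with overlapping groups and a log2 fold change of -0.16 (SE 0.11, 95% interval -0.42 to 0.093, adjusted p = 0.375). *Pfkm* shares 341 exonic bases with *Gm26513* on the same strand, which had at most 48 counts in a library.

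Aldolase splits the sugar. *Aldoa*, the muscle and general isozyme and the second member by TPM of own rows in the normal group, was at 1336, 1146, and 1154 CPM in the normal libraries and 1159, 1027, and 1098 CPM in the DM1 libraries, for a log2 fold change of -0.15 (SE 0.10, 95% interval -0.37 to 0.071, adjusted p = 0.347). *Aldoc*, the isozyme known from brain (ENSMUSG00000017390, chr11:78322968-78327781, plus strand), was at 6.74, 5.21, and 6.70 CPM in the normal libraries and 8.48, 9.29, and 9.23 CPM in the DM1 libraries. The 3 DM1 libraries were above all normal ones, and *Aldoc* rose by 0.53 on the log2 scale (SE 0.14, 95% interval 0.21 to 0.86, adjusted p = 0.0372). Its adjusted p was 0.0481 to 0.122 when libraries were left out in turn, under 0.05 only without DM1 library 1. The call was also lost in limma on log2(TPM + 0.1) and log2(TPM + 1) (adjusted p = 0.227 and 0.237) and with the replicate block (0.0607). It was lost too with library sizes alone (0.0668) and without the 2 libraries of lowest mitochondrial share (0.0875). At 4.20 ± 0.873 TPM in the normal group and 5.84 ± 1.04 TPM in the DM1 group, *Aldoc* remained a small part of the aldolase RNA. By TPM its groups overlapped, with normal library 1 at 5.13 TPM and DM1 library 1 at 4.77 TPM.

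Phosphoglucose isomerase (*Gpi1*) and triosephosphate isomerase (*Tpi1*) did not pass, with log2 fold changes of 0.14 (SE 0.11, 95% interval -0.11 to 0.38, adjusted p = 0.457) and 0.20 (SE 0.11, 95% interval -0.060 to 0.46, adjusted p = 0.282). With a library left out, that of *Gpi1* ranged from 0.046 to 0.25. Without normal library 1 and DM1 library 3, those of lowest mitochondrial share, *Tpi1* passed (log2 fold change 0.37, adjusted p = 0.0445). *Pfkfb3* and *Pfkfb4* make and remove the sugar bisphosphate that activates phosphofructokinase. *Pfkfb3* was spread widely, at 13.7, 6.35, and 13.4 CPM in the normal libraries and 12.2, 13.5, and 24.8 CPM in the DM1 libraries. The log2 fold change of 0.59 did not pass (SE 0.39, 95% interval -0.35 to 1.54, adjusted p = 0.369), and it was 0.20 without DM1 library 3 and 0.31 without normal library 2. *Pfkfb4* was at -0.020 on the log2 scale (SE 0.18, 95% interval -0.43 to 0.39, adjusted p = 0.958), with its groups overlapping.

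Of the glycolytic members that passed the test, *Pgam2* of lower glycolysis fell most. *Pgam2*, the muscle phosphoglycerate mutase, whose upstream bases hold CAGCTG and a MEF2 match (ENSMUSG00000020475, chr11:5801640-5803733, minus strand), was at 33.9, 36.5, and 45.0 CPM in the normal libraries and 14.8, 15.0, and 15.9 CPM in the DM1 libraries. The 3 DM1 libraries were nearly equal and each stood below the lowest normal library by more than 2-fold. *Pgam2* fell by 1.33 on the log2 scale, or 2.52-fold (SE 0.12, 95% interval -1.61 to -1.06, adjusted p = 0.00114), and it passed both cutoffs with any library left out (adjusted p 0.00148 to 0.0101). *Pgam1*, the ubiquitous paralog, was at 522, 453, and 465 CPM in the normal libraries and 469, 452, and 522 CPM in the DM1 libraries. Its groups overlapped and its 95% interval was -0.21 to 0.22 around a log2 fold change of 0.0018 (adjusted p = 0.994).

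*Pgk1*, phosphoglycerate kinase and the gene of an ATP-making step (ENSMUSG00000062070, chrX:106187100-106203699, plus strand), was at 1474, 1224, and 1215 CPM in the normal libraries and 2156, 1645, and 1619.6 CPM in the DM1 libraries. The DM1 libraries were all higher than the normal ones, with DM1 library 1 well above the other two. *Pgk1* rose by 0.47 on the log2 scale, or 1.38-fold (SE 0.13, 95% interval 0.16 to 0.78, adjusted p = 0.0472). It was the fourth member by TPM of own rows in the normal group (1209 ± 206 TPM) and at 1519 ± 155 TPM in the DM1 group, where it did not differ from *Pkm* (1506 ± 265 TPM) beyond their spread. By TPM the groups of *Pgk1* overlapped, with normal library 1 at 1445 TPM and DM1 library 2 at 1360 TPM. The call was lost in limma on log2(TPM + 0.1) and log2(TPM + 1) (adjusted p = 0.203 and 0.211). In the main fit its adjusted p was 0.0309 to 0.163 when libraries were left out in turn, under 0.05 only without DM1 library 3.

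The rest of lower glycolysis did not pass. *Eno1*, the general enolase, had a log2 fold change of 0.012 (SE 0.094, 95% interval -0.20 to 0.23, adjusted p = 0.951), and *Eno3*, the muscle enolase, was at 356, 308, and 314 CPM in the normal libraries and 344, 254, and 248 CPM in the DM1 libraries. DM1 library 1 of *Eno3* lay among the normal libraries and DM1 libraries 2 and 3 below them, with a log2 fold change of -0.21 (SE 0.14, 95% interval -0.52 to 0.10, adjusted p = 0.337). Without DM1 library 1, *Eno3* passed (log2 fold change -0.36, adjusted p = 0.0354). Pyruvate kinase (*Pkm*), the leading member by TPM of own rows in the normal group (1655 ± 167 TPM), was at 0.014 on the log2 scale (SE 0.11, 95% interval -0.24 to 0.27, adjusted p = 0.954), and 767 of its exonic bases are shared with *Gm49759* on the same strand. With the counts of both summed, the log2 fold change of *Pkm* was 0.10 (adjusted p = 0.535). *Ldha*, the lactate dehydrogenase subunit of glycolytic muscle, was at 1348, 1185, and 1108 CPM in the normal libraries and 1538, 1314, and 1427 CPM in the DM1 libraries, a log2 fold change of 0.23 that did not pass (SE 0.10, 95% interval -0.0039 to 0.47, adjusted p = 0.169). *Ldhb*, the subunit of oxidative tissue, was low at 16.3 ± 1.56 TPM in the normal group. It was at 11.8, 11.2, and 14.1 CPM in the normal libraries and 12.4, 10.2, and 9.83 CPM in the DM1 libraries, and the overlapping groups had a log2 fold change of -0.19 (SE 0.14, 95% interval -0.52 to 0.13, adjusted p = 0.411).

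*Gapdh* is the reference gene of the study's RT-qPCR. Its own row was at 206, 253, and 244 CPM in the normal libraries and 225, 282, and 305 CPM in the DM1 libraries, for a log2 fold change of 0.21 (SE 0.13, 95% interval -0.087 to 0.51, adjusted p = 0.321). That row held little of the *Gapdh*-like RNA. Transcripts of 78 other genes matched the longest *Gapdh* transcript at 95% identity or more over at least 200 bases, and 77 of these had counts. They summed to 3113540 counts over the 6 libraries, while the *Gapdh* row had 107044, and the row *Gm13394* alone had 259736, 182164, and 204605 counts in the normal group and 237994, 211989, and 210440 in the DM1 ones. The *Gapdh* row was thus 2.73% to 3.91% of the sum of itself and its copies.

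Summed over *Gapdh* and its copies, the level was 7539, 7222, and 7323 CPM in the normal libraries and 7832, 7423, and 7807 CPM in the DM1 libraries. *Pkm* summed with its copy was at 1699 to 2149 CPM, so the ranks by TPM given above hold for own rows only. In a fit on such sums, chosen after seeing the data, the log2 fold change was 0.063 (SE 0.083, 95% interval -0.13 to 0.25, adjusted p = 0.673). How the counting dealt with reads that map to several places is not given in the sources used here, and a sum may hold a read more than once. Of the other members, *Eno1* had copies worth 59.3% of its own counts and *Pgam1* copies worth 14.7%, and *Pgk1*, *Pkm*, *Tpi1*, *Gpi1*, *Ldha*, and *Ldhb* had copies worth 4.07% or less. On the summed counts *Eno1* had a log2 fold change of 0.10 (adjusted p = 0.649), *Pgam1* of 0.023 (adjusted p = 0.905), and *Pgk1* of 0.48 (adjusted p = 0.0465), and the counts of members past each cutoff did not change with this summing. The *Eno1* sum includes *Eno1b*, which had 29299, 17522, and 2767 counts in the normal libraries, so that the own-row share of *Eno1* was highest in normal library 3.

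**Figure D2:**
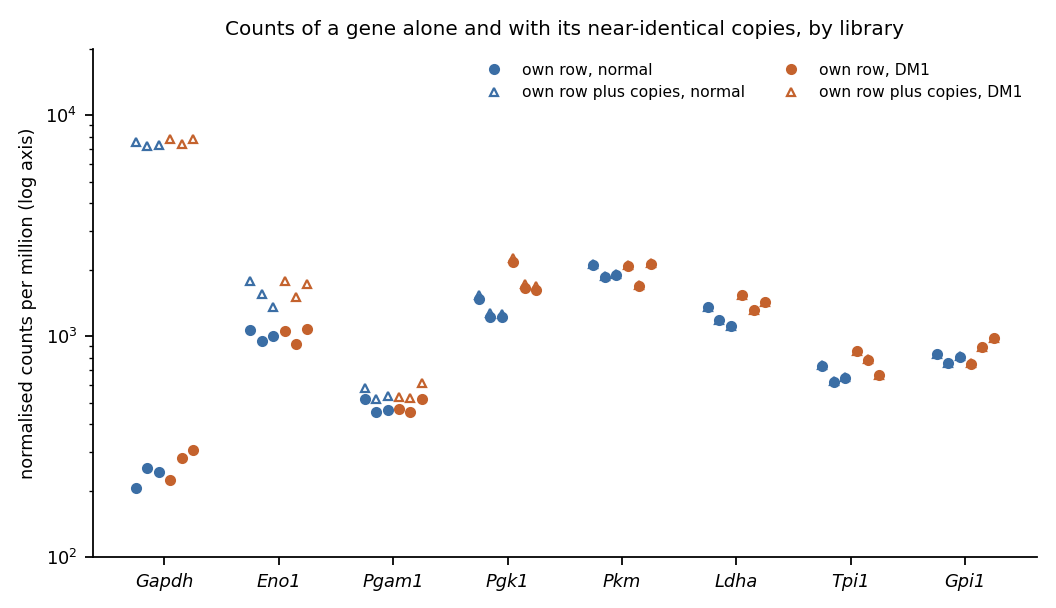
Normalised level in CPM (log axis) of 8 glycolytic genes in each of the 6 libraries, from the gene's own row (filled circles) and from that row plus the rows of its near-identical copies (open triangles). For *Gapdh* the sum is far above the own row in every library, for *Eno1* the own row is 59.7% to 74.1% of the sum, for *Pgam1* the gap is smaller, and for the other 5 genes both values nearly coincide.

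In glycogen breakdown, the muscle isozyme of phosphorylase fell and its paralogs did not pass the test. *Pygm*, the muscle glycogen phosphorylase (ENSMUSG00000032648, chr19:6384399-6398459, plus strand), was at 16.5, 21.5, and 24.3 CPM in the normal libraries and 6.20, 7.59, and 8.84 CPM in the DM1 libraries. All DM1 libraries were below all normal ones, and *Pygm* fell by 1.46 on the log2 scale, or 2.75-fold (SE 0.18, 95% interval -1.87 to -1.05, adjusted p = 0.0027). It passed both cutoffs with any library left out (adjusted p 0.00253 to 0.0172). *Pygb*, the brain-type phosphorylase, was at 37.0, 34.2, and 36.0 CPM in the normal libraries and 32.7, 29.7, and 37.2 CPM in the DM1 libraries, with overlapping groups and a log2 fold change of -0.10 (SE 0.10, 95% interval -0.34 to 0.13, adjusted p = 0.551). *Pygl*, the liver-type phosphorylase, was at low counts, with 9, 8, and 13 counts (normal) against 41, 18, and 38 counts (DM1). Its groups did not overlap, and its log2 fold change of 1.69 did not pass (SE 0.55, 95% interval 0.45 to 2.94, adjusted p = 0.0699).

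Phosphorylase kinase, which activates phosphorylase, has regulatory, catalytic, and calmodulin subunits. The muscle alpha subunit *Phka1* was at 34.4, 32.5, and 33.3 CPM in the normal libraries and 27.2, 22.5, and 29.2 CPM in the DM1 libraries. The groups did not overlap, but the log2 fold change of -0.34 did not pass (SE 0.11, 95% interval -0.59 to -0.091, adjusted p = 0.0696). *Phka1* passed without DM1 library 3 (adjusted p = 0.028) and, with every library kept, in DESeq2 (adjusted p = 0.0474). The liver alpha subunit *Phka2* and the beta subunit *Phkb* had log2 fold changes of -0.044 (SE 0.10, 95% interval -0.28 to 0.19, adjusted p = 0.828) and -0.19 (SE 0.080, 95% interval -0.37 to -0.0088, adjusted p = 0.146). The muscle catalytic subunit *Phkg1* was barely detected, with 76, 19, and 45 counts (normal) against 24, 54, and 20 counts (DM1), and its overlapping groups gave a log2 fold change of -0.43 (SE 0.53, 95% interval -1.63 to 0.77, adjusted p = 0.641). It shares 630 exonic bases with *Sumf2* on the opposite strand, which had 721 to 1292 counts, and the sources used here do not give the strand setting of the counting. Opposite-strand overlaps were also present for *Phkg2* (876 exonic bases with *Ccdc189*), *Pfkp* (748 with *Pitrm1*), *Gpi1* (741 with *Gm26762*), and *Gys1* (310 with *Ruvbl2*). Some other members had shorter ones. The liver and testis catalytic subunit *Phkg2* had a log2 fold change of 0.18 (SE 0.11, 95% interval -0.068 to 0.42, adjusted p = 0.311).

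On the side of synthesis, the muscle glycogen synthase *Gys1* was at 74.5, 66.1, and 67.0 CPM in the normal libraries and 69.5, 69.8, and 79.0 CPM in the DM1 libraries, for a log2 fold change of 0.072 (SE 0.089, 95% interval -0.13 to 0.27, adjusted p = 0.644). The branching enzyme *Gbe1* was at 56.6, 50.5, and 52.8 CPM in the normal libraries and 58.8, 61.2, and 59.8 CPM in the DM1 libraries. Its DM1 libraries were all above its normal ones, by a narrow margin, and its log2 fold change of 0.17 did not pass (SE 0.079, 95% interval -0.0093 to 0.35, adjusted p = 0.184). *Ugp2*, which makes UDP-glucose, was at 106, 105, and 98.7 CPM in the normal libraries and 125, 133, and 78.1 CPM in the DM1 libraries, with DM1 library 3 apart from the other DM1 libraries and a log2 fold change of 0.12 (SE 0.18, 95% interval -0.31 to 0.54, adjusted p = 0.731). Without DM1 library 3 it passed (log2 fold change 0.32, adjusted p = 0.0223).

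Of the subunits that bring protein phosphatase 1 to glycogen, *Ppp1r3a*, the muscle one (ENSMUSG00000042717, chr6:14713977-14755274, minus strand), had 102, 79, and 90 counts (normal) against 50, 18, and 13 counts (DM1). The normal libraries were tightly grouped and the DM1 libraries lay below them, with DM1 library 1 nearest. *Ppp1r3a* fell by 1.74 on the log2 scale, or 3.35-fold (SE 0.46, 95% interval -2.78 to -0.71, adjusted p = 0.0341). At this depth the call is not firm: it passed only without DM1 library 1, and with each other library left out the adjusted p was above 0.05 (range 0.00633 to 0.112). Without DM1 library 1 the log2 fold change was -2.47, and with limma on log2(TPM + 1), a scale that compresses low genes, it was -0.27 (adjusted p = 0.0764). *Ppp1r3b* and *Ppp1r3c*, the subunits found in liver and other tissues, had log2 fold changes of 0.12 (SE 0.14, 95% interval -0.20 to 0.43, adjusted p = 0.635) and 0.34 (SE 0.33, 95% interval -0.40 to 1.08, adjusted p = 0.534). *Ppp1r3b* was at 8.91, 8.20, and 7.24 CPM in the normal libraries and 8.79, 9.74, and 7.86 CPM in the DM1 libraries, and *Ppp1r3c* at 1.68, 1.29, and 0.687 CPM in the normal libraries and 1.69, 1.49, and 1.46 CPM in the DM1 libraries.

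In the hexosamine branch, glutamine-fructose amidotransferase diverts sugar phosphate toward protein glycosylation, and its isozymes moved in opposite directions. *Gfpt1*, the main isozyme here (ENSMUSG00000029992, chr6:87042846-87092197, plus strand), was at 107, 98.1, and 111 CPM in the normal libraries and 79.0, 79.6, and 91.4 CPM in the DM1 libraries, with all DM1 libraries below all normal ones. It fell by 0.33 on the log2 scale (SE 0.091, 95% interval -0.54 to -0.13, adjusted p = 0.0391). *Gfpt2* (ENSMUSG00000020363, chr11:49794178-49838613, plus strand) had 33, 17, and 34 counts (normal) against 72, 67, and 65 counts (DM1), and the DM1 libraries were nearly equal and above all normal ones. It rose by 1.31 on the log2 scale, or 2.48-fold (SE 0.33, 95% interval 0.56 to 2.07, adjusted p = 0.0303). With any library left out, the adjusted p of *Gfpt2* was above 0.05 (range 0.0526 to 0.0861), and that of *Gfpt1* was under 0.05 only without DM1 library 3 (range 0.0112 to 0.177). Per length, *Gfpt2* was at 0.214 ± 0.0557 TPM in the normal group and 0.497 ± 0.0588 TPM in the DM1 group, while *Gfpt1* was at 32.5 ± 2.12 and 23.0 ± 4.50 TPM.

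**Figure D3:**
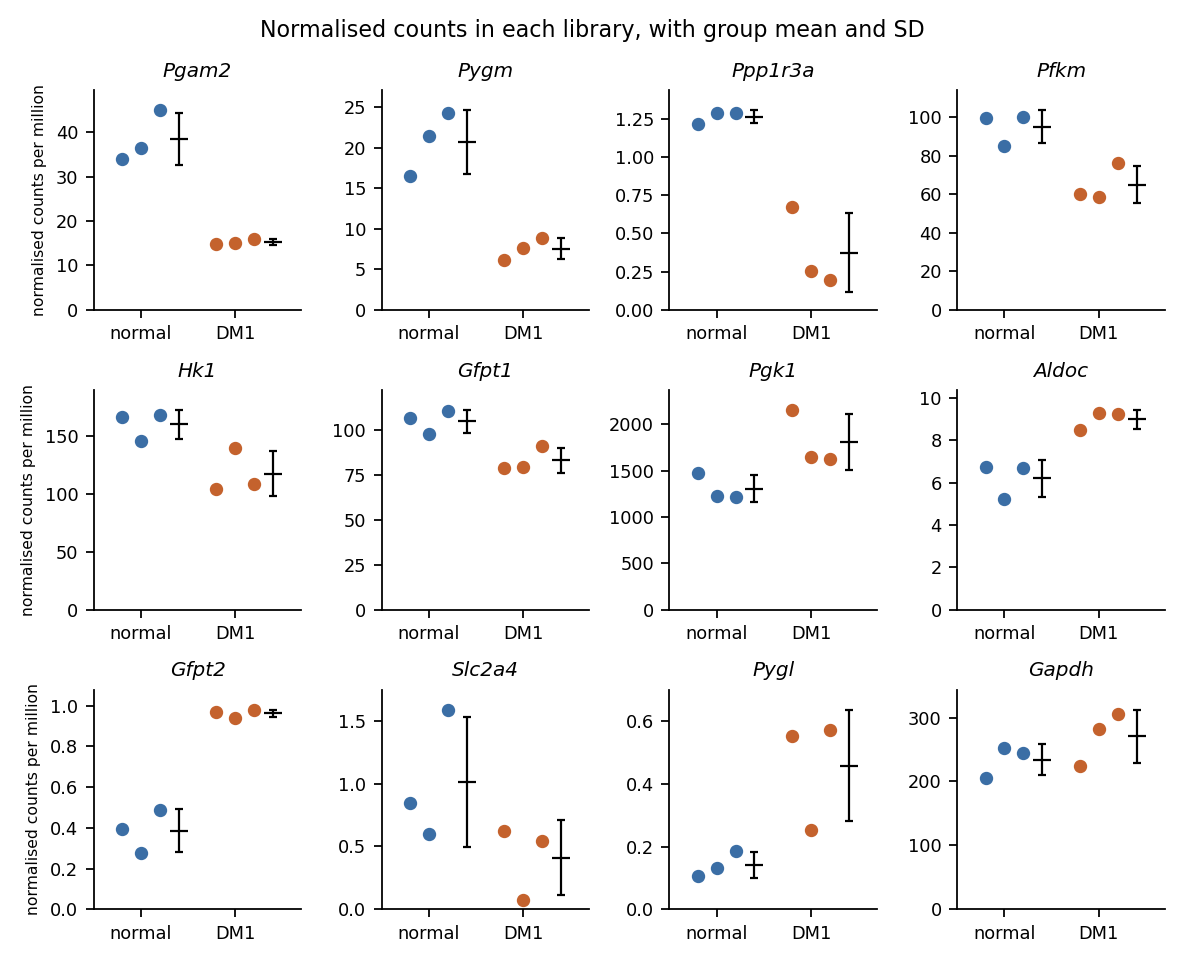
Normalised level in CPM (y axis, from 0) in each of the 3 normal libraries (blue) and 3 DM1 libraries (orange) for 12 members, with the group mean and SD in black. The 6 lower and 3 higher members have groups that do not overlap, *Slc2a4* and *Gapdh* have groups that do, and *Pygl* does not overlap but is below 0.6 CPM everywhere.

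To set isoforms against their paralogs without library scaling, the log2 ratio of their counts was taken within each library. Of 16 pairs, 15 could be computed, and for 11 of these the ratios of the groups did not overlap, 10 lower and 1 higher in the DM1 group, beside 31.5% of all pairs of tested genes. In 14 of the 15 the first gene is a labelled muscle member, with 9 lower and 1 higher, and the other is *Gfpt1*/*Gfpt2*. The pairs share genes and 3 libraries against 3 cannot give an exact permutation p below 0.1, which is the value of each of the 11. The *Pygm*/*Pygb* ratio was -1.16, -0.67, and -0.57 in the normal libraries and -2.40, -1.97, and -2.07 in the DM1 libraries, a difference of -1.35. By TPM, *Pygm* made up 45.4, 46.6, and 49.4% of the RNA of both in the normal libraries and 21.6, 28.0, and 27.9% in the DM1 libraries. The *Pgam2*/*Pgam1* ratio was -3.94, -3.63, and -3.37 against -4.99, -4.91, and -5.03, and the TPM share of *Pgam2* was 14.4% ± 2.42 (SD, n = 3) against 6.21% ± 0.257 (SD, n = 3).

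Phosphofructokinase showed the same kind of difference with a smaller size. The *Pfkm*/*Pfkp* log2 ratio was -0.65, -0.54, and -0.42 against -1.41, -1.54, and -1.14, a difference of -0.83, and that of *Pfkm*/*Pfkl* differed by -0.40. In TPM, *Pfkm* took 47.7% ± 3.31 (SD, n = 3) of the sum with *Pfkp* in the normal group and 33.2% ± 3.32 (SD, n = 3) in the DM1 group. The *Aldoa*/*Aldoc* log2 ratio differed by -0.69, although *Aldoa* held 99.5% to 99.7% of the TPM of both in every library. The *Gfpt1*/*Gfpt2* ratio differed by -1.66, and both isozymes are found outside muscle.

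Several pairs include a gene of few counts. *Pygm*/*Pygl* differed by -3.01, *Ppp1r3a*/*Ppp1r3b* by -2.03, *Ppp1r3a*/*Ppp1r3c* by -2.35, and *Slc2a4*/*Slc2a1* by -1.63 on the log2 scale. The *Slc2a4*/*Slc2a1* ratio was -7.73, -8.00, and -6.60 in the normal libraries and -8.09, -10.86, and -8.26 in the DM1 libraries. Its groups were apart by a narrow margin, and DM1 library 2, with 5 counts of *Slc2a4*, lay far below the other DM1 libraries. The *Ldha*/*Ldhb* ratio went the other way, from 6.62 ± 0.29 in the normal group to 7.05 ± 0.12 (SD, n = 3) in the DM1 group. The other 4 pairs had overlapping groups by counts. The *Hk2*/*Hk1* ratio was -1.28, -1.43, and -1.56 against -0.96, -1.34, and -0.75 (exact permutation p = 0.2), the *Eno3*/*Eno1* ratio differed by -0.23 (exact permutation p = 0.3), *Phka1*/*Phka2* by -0.30 (exact permutation p = 0.2), and *Phkg1*/*Phkg2* by -0.60 (exact permutation p = 0.4). By TPM the groups of *Phka1*/*Phka2* did not overlap, with *Phka1* at 25.0, 21.6, and 22.6% of both in the normal libraries and 20.8, 16.5, and 19.2% in the DM1 ones. Those of *Slc2a4*/*Slc2a1*, apart by counts, overlapped by TPM. *Slc2a4* was at 0.488, 0.405, and 1.31% of both in the normal libraries and 0.482, 0.0324, and 0.307% in the DM1 ones.

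**Figure D4:**
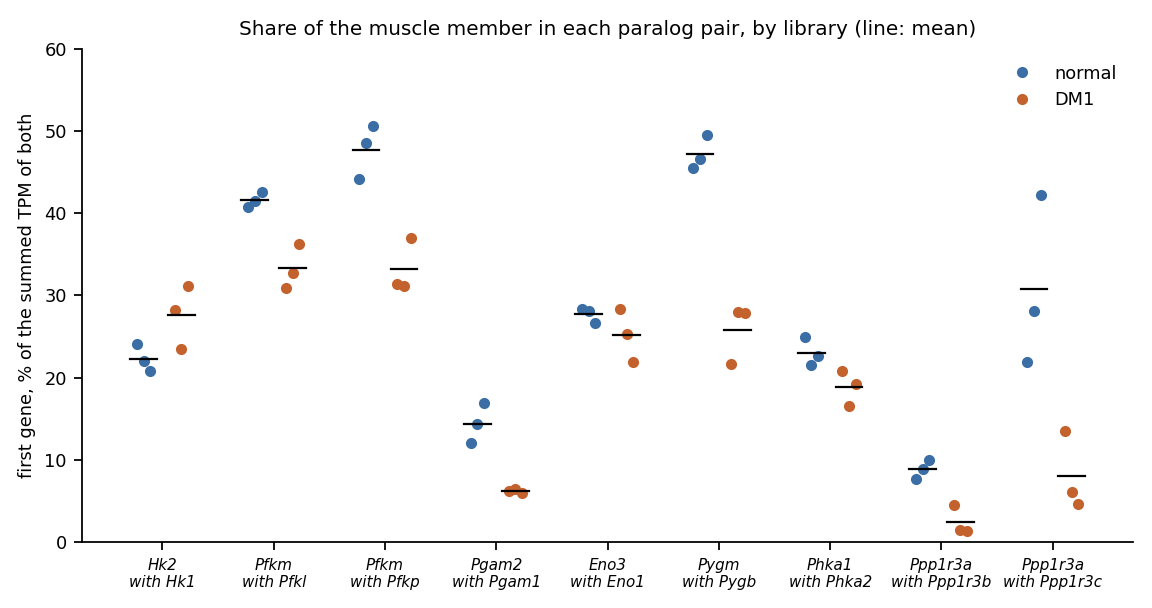
Percent of the summed TPM of 2 paralogs that came from the first-named gene (y axis) in each normal (blue) and DM1 (orange) library, with the mean as a line. The shares of *Pfkm*, *Pgam2*, *Pygm*, *Phka1*, and *Ppp1r3a* are lower in every DM1 library than in any normal library, and those of *Eno3* and *Hk2* overlap between the groups.

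By role, glycolysis and glycogen genes had like medians. The median log2 fold change was 0.0063 over the 22 glycolysis members, with 2 higher and 3 lower at an adjusted p under 0.05, and 0.014 over the 14 tested glycogen members, with none higher and 2 lower. The labelled muscle members stood lower, at a median of -0.34 over the 13, 10 of them below 0, with none higher and 4 lower, and 0.12 over the 25 others, 17 of them above 0, with 3 higher and 2 lower. Over all tested genes, 7.13% were higher and 8.73% lower, and 9234 of 19005 had a log2 fold change below 0. These medians describe the lists and were not tested against each other.

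Other genes of these pathways, from lists chosen by name, were counted in the same way. The shares to set beside each list are 7.13% higher and 8.73% lower over all tested genes. Of 18 tested genes of glycolysis and gluconeogenesis outside the members, 3 were higher and 2 lower at an adjusted p under 0.05, with a median log2 fold change of 0.018. *Eno2*, the neuronal enolase, was at 45.5, 38.2, and 38.0 CPM in the normal libraries and 90.7, 105, and 114 CPM in the DM1 libraries and rose by 1.35 on the log2 scale (SE 0.11, adjusted p = 0.000916), every DM1 library being above every normal one. Of 21 tested genes of glycogen turnover outside the members, 3 were higher and 4 lower, with a median of -0.22. *Prkaa2*, a catalytic subunit of AMP-activated kinase, was at 6.16, 7.39, and 6.48 CPM in the normal libraries and 2.62, 2.69, and 2.71 CPM in the DM1 libraries and fell by 1.32 (SE 0.15, adjusted p = 0.00198). *Gsk3b*, a kinase of glycogen synthase, was at 58.4, 105, and 90.2 CPM in the normal libraries and 30.3, 39.2, and 46.7 CPM in the DM1 libraries and fell by 1.13 (SE 0.25, adjusted p = 0.0281), with an adjusted p of 0.0139 to 0.098 when libraries were left out, under 0.05 in 1 of 6 cases. Of 10 tested hexosamine genes outside the members, 1 was higher and none lower.

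Of 13 genes that respond to low oxygen and are not glycolytic, 11 were higher in the DM1 group at an adjusted p under 0.05 and none lower, beside 7.13% and 8.73% of all tested genes. Their median log2 fold change was 0.72, with a summed level of 1988 to 2158 CPM against 2993 to 3062 CPM. *Ero1l*, a protein-folding oxidase, rose by 1.16 (SE 0.13, adjusted p = 0.00204) and *Adm*, a peptide hormone, by 1.11 (SE 0.14, adjusted p = 0.0028). The 25 myotube markers had a median of -0.61, with a range of -2.90 to 0.23. Every member with a log2 fold change below 0 lies in that range, so it sets none of them apart. The part of either list in the members' differences was not tested.

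**Figure D5:**
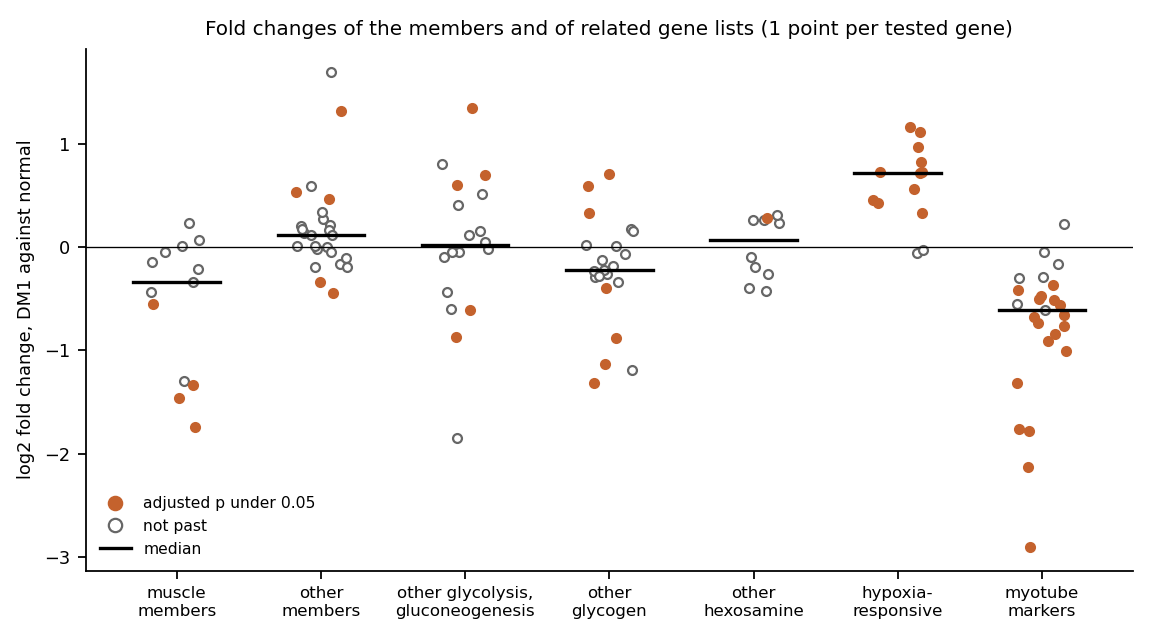
Log2 fold change of each tested gene in the DM1 group against the normal group (y axis), for the muscle and other members and for 5 related lists, with the median as a line and filled points for an adjusted p under 0.05. The medians of the hypoxia-responsive genes (0.72) and the myotube markers (-0.61) lie far from 0 on opposite sides, and those of the member groups lie between.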

How the data were processed

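RNA of 6 libraries, 3 per group, was sequenced, and groups and replicate numbers came from the sample labels. Per the labels and methods, the authors trimmed the reads (trim_galore) before alignment to GRCm38 by HISAT2 and quantification by StringTie. The authors deposited whole-number counts for each gene with no normalization. For each library they also deposited coverage (signal), and FPKM and TPM values scaled for length and library size. Counts entered the main test. Coverage served to show that 1 count stands for 75 aligned bases, TPM served for levels between genes and for limma, and FPKM was not used.

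Genes were kept by filterByExpr (minimum count 10) and scaled by TMM (factors 0.940 to 1.05). The groups were compared with edgeR's robust quasi-likelihood test, with Benjamini-Hochberg adjustment over 19005 genes. The common biological coefficient of variation was 0.221. CPM values are counts scaled to a common library size after TMM. The cutoffs were those of the study, an adjusted p under 0.05 with a log2 fold change over 1 in size. Paralog ratios used counts plus 1 and a two-sided exact permutation test over the 6 libraries. Any of the 39 members could be named, with the value in every library for members past the cutoffs, for those in pairs whose ratio did not overlap, for *Gapdh*, and for others where their role needed it. Genes outside the members were named where they passed the cutoffs or mark differentiation. Genes that share sequence or exons with a member and the macrophage markers were named after their values were seen. The members and all gene lists were chosen with earlier results of these data known. Near-identical copies were found by BLAST among GENCODE M21 transcripts, and motifs were searched on both strands of RefSeq promoters.

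As alternatives, the test was repeated with DESeq2 and with its size factors, with unscaled libraries, with other filters on low counts, with counts divided by 4 or summed over genes that share exons, with a replicate block, with limma on log2(TPM + 1) and log2(TPM + 0.1), and with each library left out. Leaving out the 2 libraries of lowest mitochondrial share, leaving out mitochondrial genes, and summing near-identical copies were chosen after seeing the data. The fit was tested on simulated data. R 4.3.3 ran edgeR 4.0.16, limma 3.58.1, and DESeq2 1.42.0, and Python 3.11.15 ran scipy 1.17.1 and pandas 2.3.3.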

Additional observations from a re-analysis of the deposited data

How the results depend on the processing

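*Pgam2* and *Pygm* passed both cutoffs under all 19 alternatives tried. *Ppp1r3a* passed them in 1 of 6 fits with a library left out and in 10 of 13 others, and *Gfpt2* in 0 of 6 and 9 of 13. No direction of the 9 members that passed reversed, and calls were lost in 58 of their 171 refits. The cause of the changes below was not tested. Low counts limit *Slc2a4*, *Pygl*, *Phkg1*, *Ppp1r3a*, *Ppp1r3c*, and *Gfpt2*, where 0.0371 to 0.0486 CPM corresponds to 3 counts. If a fragment is about 4 counts, as assumed here, 3 counts are less than a fragment, so these values are no floor for counting error. They also leave out the spread between libraries.

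The number of members past both cutoffs and higher in the DM1 group was 1, and it was 0 in limma on log2(TPM + 0.1) and on log2(TPM + 1), with the replicate block, without the 2 libraries of lowest mitochondrial share, and with any library left out. The number lower was 3, and 2 in both limma fits and without the 2 libraries of lowest mitochondrial share, where *Ppp1r3a* did not pass, and 2 to 3 with a library left out. At an adjusted p under 0.05 alone, the number higher (3) was 0 in both limma fits, 1 with the replicate block, 2 with library sizes alone and without the 2 libraries of lowest mitochondrial share, and 0 to 2 with a library left out. The number lower (6) was 2 in both limma fits, 4 without the 2 libraries of lowest mitochondrial share, 5 with the replicate block, with library sizes alone, and with mitochondrial genes left out, 7 with DESeq2, which gained *Phka1*, and 2 to 5 with a library left out. Both limma fits lost the calls of *Pgk1*, *Aldoc*, *Gfpt2*, *Pfkm*, *Hk1*, *Gfpt1*, and *Ppp1r3a*, the block lost *Aldoc*, *Gfpt2*, and *Hk1*, library sizes alone lost *Aldoc* and *Gfpt1*, and leaving out the 2 libraries of lowest mitochondrial share lost *Aldoc*, *Gfpt2*, *Hk1*, and *Ppp1r3a* and gained *Tpi1*. The replicate numbers did not pair the libraries, since deviations of like-numbered libraries correlated at 0.0675, 0.0222, and 0.0263, and normal library 3 correlated best with DM1 library 2.

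The medians lay so near 0 that their sign changed. In limma on log2(TPM + 0.1) and log2(TPM + 1), the median log2 fold change of the members was -0.084 and -0.066, that of the glycolysis members -0.13 and -0.13, and that of the glycogen members -0.019 and -0.019, where the median of all genes was -0.094 and -0.062. The glycogen median was -0.037 with at least 10 counts in every library, -0.034 with counts divided by 4, 0.093 without the 2 libraries of lowest mitochondrial share, and -0.055 to 0.059 with a library left out.

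No member that passed the test changed sign, and 10 that did not pass did so. With limma on log2(TPM + 0.1) and log2(TPM + 1), the log2 fold changes were -0.055 and -0.055 for *Slc2a1*, 0.14 and 0.14 for *Pfkfb4*, -0.11 and -0.11 for *Pgam1*, -0.15 and -0.15 for *Eno1*, -0.15 and -0.15 for *Pkm*, -0.0056 and -0.0056 for *Ldha*, and -0.026 and -0.025 for *Ugp2*. With library sizes alone they were -0.015 for *Slc2a1*, -0.021 for *Pgam1*, -0.012 for *Eno1*, and -0.011 for *Pkm*. *Pgam1* was at -0.0022 with no filter beyond 1 count, and *Phkg1* at 0.17 without the 2 libraries of lowest mitochondrial share. With a library left out, the ranges that span 0 were -0.023 to 0.086 for *Slc2a1*, -0.14 to 0.055 for *Hk2*, -0.21 to 0.10 for *Pfkfb4*, -0.062 to 0.065 for *Pgam1*, -0.030 to 0.079 for *Eno1*, -0.051 to 0.11 for *Pkm*, -0.12 to 0.073 for *Phka2*, and -0.029 to 0.32 for *Ugp2*. Of the 15 paralog ratios, none reversed, and the difference of log2 ratio Pygm/Pygl moved from -3.01 to -3.60 with TPM plus 0.01 in place of counts. *Pygl* gave no value with counts divided by 4, nor did *Pygl* and *Slc2a4* with at least 10 counts in every library.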

Other observations

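The second row named *Aldoa* (ENSMUSG00000114515, chr7:126800790-126809108, minus strand) was not used above. It had 102, 92, and 40 counts in the normal group and 120, 123, and 98 in the DM1 group, a log2 fold change of 0.55 that did not pass (SE 0.34, 95% interval -0.22 to 1.33, adjusted p = 0.318).

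Of the rows nearly identical to *Eno1*, *Gm4735* had 29327, 18782, and 21249 counts in the normal group and 25463, 21103, and 21375 in the DM1 group. *Eno1b* had 29299, 17522, and 2767 counts in the normal group and 27034, 20150, and 20963 in the DM1 group, so that normal library 3 stood apart from the other 5 libraries in this row. No such gap was present in the *Eno1* row, at 90128, 58653, and 70118 and 78650, 65755, and 71531 counts. *Gm49759*, which shares exonic bases with *Pkm*, had 32753, 22432, and 25158 counts in the normal group and 33861, 38481, and 37855 in the DM1 group.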
